A study of Mus musculus with 60 samples.

Results

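The 10 genes of the amino acid stress response described here were followed through every library of a mouse model of the CD74-NRG1 fusion oncogene: Atf4, Asns, Chac1, Trib3, Ddit3, Psat1, Phgdh, Sesn2, Pck2 and Fgf21. They were taken by symbol from both deposited count tables, so these 10 genes stand against 46517 genes in the fibroblast table and 54838 in the tissue table. The tables hold 60 libraries of 3′ end RNA sequencing, 18 from cultured mouse embryonic fibroblasts and 42 from frozen tissue of 9 mice, with 3107561 to 5511793 and 4837536 to 10089637 counts per library. Values below are in CPM, the count of a gene scaled to a common library total, unless a log2 difference is named.

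The model carries an oncogenic fusion of CD74 and NRG1 in the Rosa26 locus behind a stop cassette flanked by FRT sites. A Flp deleter allele, also in Rosa26, removes that cassette early in the embryo, so the fusion is meant to be active in nearly all tissues. The fibroblasts came from 9 embryos and were sampled at passages 1 and 3. Labelled genotypes were Rosa26Flp/Flp, negative for the transgene (embryos 1, 5 and 8), heterozygous Rosa26FSF.CD74-NRG1/Flp (embryos 2, 4 and 6) and homozygous Rosa26FSF.CD74-NRG1/FSF.CD74-NRG1 (embryos 3, 7 and 10). All 9 tissue mice are described as carriers of 1 fusion and 1 Flp allele, so the normal tissues come from transgenic animals and not from wild type controls. Normal tissue was liver (8 libraries), lung (7), spleen (6), muscle (6), brain (2) and kidney (1). Tumour tissue was sarcoma (7 libraries from 6 mice), liver tumour (3) and intestine tumour (2, both from 1 mouse). The labels give no age and no treatment.

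Nrg1 did not match the rest of the label group in embryos 1 and 3. The transcript, which the transgene carries as a fusion, stood at 132 and 147 CPM in the libraries of embryo 1, labelled negative, and at 0.644 and 1.28 CPM in those of embryo 3, labelled homozygous. The other embryos labelled negative had at most 1.57 CPM and the other embryos labelled with the transgene had at least 32.3 CPM. The second library of embryo 8 is headed passage 5 in the count table, and the titles of its libraries name passages 2 and 1 while their group labels say 1 and 3. Genotype comparisons below therefore concern libraries labelled with a genotype. As written, the homozygous genotype names no Flp allele, unlike the heterozygous and negative ones, so those comparisons also differ in Flp alleles. The tissues matched their names: 10 hepatocyte markers summed to 47750 to 84610 CPM in normal liver and 10 muscle fibre markers to 17660 to 39410 CPM in muscle. Mouse M00246, from which no tumour library was made, had Nrg1 at 0.675 to 5.36 CPM in its 4 normal tissues.

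ATF4 is a transcription factor whose translation rises when kinases of the integrated stress response phosphorylate eIF2 alpha, as happens in amino acid shortage, endoplasmic reticulum stress or haem deficiency. ATF4 binds composite C/EBP-ATF elements near its targets and raises genes for amino acid synthesis, amino acid uptake and transfer RNA charging. Its output is therefore read from its targets rather than from Atf4 mRNA alone. Among the genes described here Ddit3 encodes CHOP, a partner factor tied to cell death, and Trib3 a pseudokinase that feeds back on ATF4. Chac1 degrades glutathione and Sesn2 restrains mTORC1. Asns makes asparagine, Phgdh and Psat1 catalyse the first steps of serine synthesis, and Pck2 is the mitochondrial phosphoenolpyruvate carboxykinase. Fgf21 encodes a secreted hormone made mainly by liver.

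A core of the composite element, TGATGNAA, was searched on both strands of the RefSeq promoter windows (mouse build GRCm38.p6, 250 bases before to 50 bases after each annotated start, with the first transcribed base as position 0). It lay in the window of 5 of the 10 genes, compared with 13 of 33 other genes of the ATF4 pathway (39.4%) and 1219 of 27025 genes in all (4.51%). The 30 bases around each match are shown for the 5 genes that have one. They run 5′ to 3′ on the strand that reads the motif, with the motif in capitals.
Asns: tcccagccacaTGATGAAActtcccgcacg
Chac1: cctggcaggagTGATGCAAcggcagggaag
Trib3: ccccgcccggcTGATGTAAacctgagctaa
Pck2: ctgtaagatacTGATGTAActttgaaggct
Fgf21: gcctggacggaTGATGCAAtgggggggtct
The Asns match (chr6:7693225-7693232) lay on the strand of the gene, at positions -23 to -16. The other 4 lay on the strand opposite the gene: Chac1 at -193 to -186 (chr2:119351049-119351056), Pck2 at -103 to -96 (chr14:55540163-55540170) and Fgf21 at -139 to -132 (chr7:45615622-45615629). The Trib3 match fell just downstream of the annotated start, at 14 to 21 (chr2:152344039-152344046). A match of letters is a description of the window and not a measured binding site.

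Levels of the 10 genes differed widely between tissues. All except Fgf21 had their highest group median in the fibroblasts. That order across the fibroblast and tissue tables, which were deposited separately, is a description. Mitochondrial genes held 0.42 to 0.79% of counts in the fibroblasts and 4.53 to 34.8% in the tissues, and CPM does not adjust for this. Among the tissue groups, Psat1 ranged from a median of 0.304 CPM in normal liver to 79.1 CPM in the intestine tumours, and Phgdh from 0.130 to 171 CPM in the same pair. Normal liver had the lowest tissue median for Asns, Ddit3, Psat1, Phgdh and Pck2, and for Ddit3 and Psat1 its range lay below every library of every other tissue group.

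Each gene had its own pattern outside the liver. Asns stood at 44.2 and 46.5 CPM in the 2 brain libraries and at a median of 43.6 CPM in spleen, where mouse M00245 had only 7.47 CPM. The next group, the intestine tumours (45.2 and 32.6 CPM), overlapped the spleen, while lung (8.37 to 14.7 CPM) did not overlap the intestine tumours. Sesn2 was highest among tissues in the single kidney library, at 24.4 CPM. Chac1 had its highest tissue median in muscle, 10.9 CPM, with a spread from 3.24 to 59.8 CPM, the top 2 values being those of mice M00238 and M00237. Pck2 had its highest tissue median in spleen, 48.8 CPM, and the spleen range overlapped that of the intestine tumours. Fgf21 was 0 in all libraries of sarcoma, intestine tumour, brain and kidney and did not pass 0.487 CPM in spleen, lung or muscle.

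**Figure D1:**
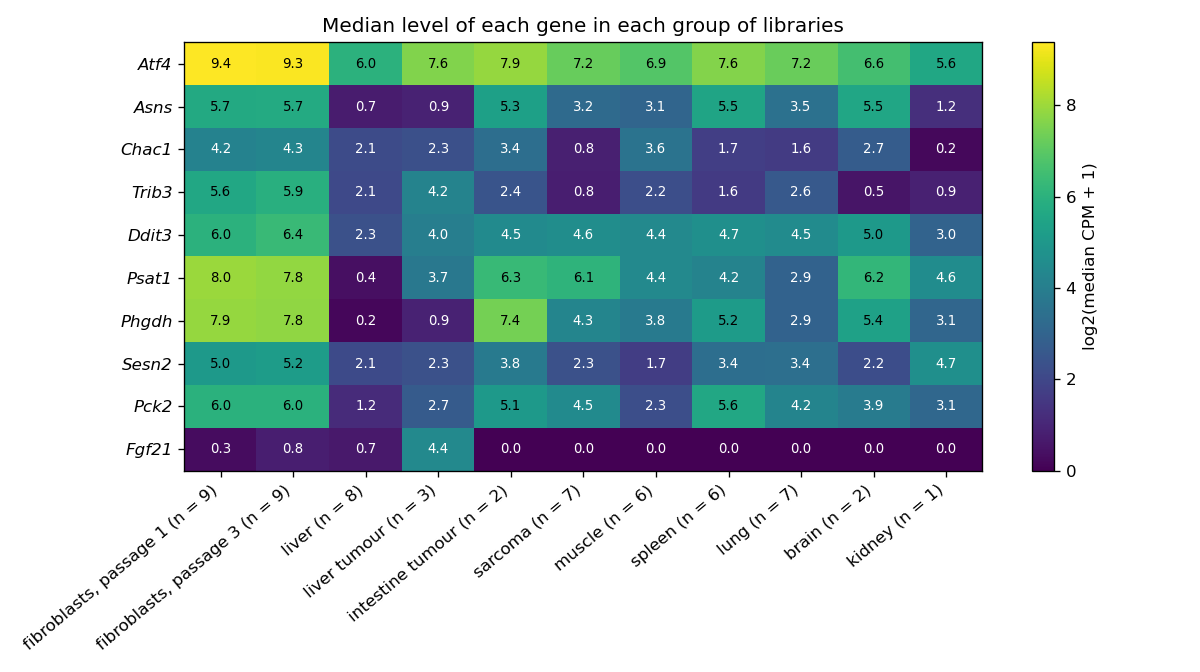
Heat map of the median level of the 10 genes (rows) in 11 groups of libraries (columns, with the number of libraries), as log2 of the median CPM + 1, written in each cell and shown by colour. Normal liver is at or near the bottom for the synthesis genes (Psat1 median 0.304 CPM, Phgdh 0.130 CPM), and Fgf21 is highest in the liver tumours (median 20.3 CPM).

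Across libraries the genes varied together more closely in the fibroblasts than in the tissues. Over the 45 pairs of the 10 genes, Pearson's r of log2(CPM + 1) had a median of 0.652 over 18 fibroblast libraries and of 0.286 over 42 tissue libraries. Within passage 1 of the fibroblasts the median was 0.799 over 9 libraries and within passage 3 it was 0.498. These values are descriptions: 2 libraries came from each embryo, several from each mouse, and libraries share depth and cell makeup. The 5 genes most like Asns over the fibroblast libraries were Tsc22d3 (r = 0.877), Blvra (0.862), Taz (0.856), Arhgef2 (0.851) and S100a4 (0.839), out of 9044 genes with a mean of at least 5 CPM. Over the tissue libraries they were Orai2 (0.860), Smox (0.848), Relt (0.848), Vopp1 (0.844) and Pfkp (0.839), out of 11678 genes, so no gene was on both lists.

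Liver tumours had higher levels of ATF4 targets than normal liver. Of the 9 genes that passed the low-count filter, 6 were higher at an adjusted p below 0.05 (Trib3, Psat1, Fgf21, Pck2, Ddit3 and Atf4) and none was lower. Across all 13256 genes tested, 6.98% were called higher and 3.64% lower, 10.6% in all. The median log2 difference was 2.21 over the 9 genes and 0.09 over all genes. Phgdh was too low to be tested with all 3 tumours. Psat1 and Fgf21 had normal liver medians of only 0.304 and 0.576 CPM, near the floor, so a lower call was hardly possible for them. The test was edgeR's quasi-likelihood test with Benjamini-Hochberg adjustment over all genes, on 3 tumours from 3 mice and normal liver from 8 mice. The library of mouse M00249 has a title that names only liver and was counted as a tumour by its group label. Among the genes given by tumour below, it was the lowest of the 3 for Atf4, Asns, Trib3, Ddit3 and Fgf21. Without it the same 6 genes were called, and also Phgdh, which passed the filter in that fit, among 1631 genes in all. In these bulk samples more RNA per cell and more cells of a type cannot be told apart.

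The regulators moved as follows. Trib3, the feedback pseudokinase, was 17.1, 58.7 and 11.8 CPM in the tumours of mice M00236, M00248 and M00249, while normal liver had a lowest value of 1.12, a median of 3.22 and a highest of 4.58 CPM. The groups did not overlap, and the log2 difference was 3.17 (SE 0.49, edgeR adjusted p = 0.00207). Ddit3 stood at 15.1, 20.6 and 6.45 CPM in the same tumours, against 2.98, 4.00 and 5.73 CPM in normal liver. Again every tumour lay above every normal liver, with a log2 difference of 1.57 (SE 0.32, edgeR adjusted p = 0.00875). Atf4 itself was 192, 214 and 96.2 CPM in the tumours and 54.7, 64.3 and 107 CPM (lowest, median, highest) in normal liver. The lowest tumour overlapped the normal range, and the log2 difference was 1.09 (SE 0.26, edgeR adjusted p = 0.0204). CPM groups without overlap, tumour above normal, were found for 4 of the 9 tested genes (Trib3, Ddit3, Psat1 and Fgf21) and for 8.28% of all genes, while none of the 9 and 2.54% of all genes lay wholly below. Asns, Psat1 and Fgf21 were at 0 in at least 1 normal liver, so they could not lie wholly below.

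Among the enzymes, Psat1 was the most changed. It was 5.65, 76.1 and 12.4 CPM in the tumours of M00236, M00248 and M00249, and 0, 0.304 and 3.18 CPM at the lowest, median and highest normal liver. All 3 tumours exceeded all 8 normal livers (log2 difference 5.23, SE 0.85, edgeR adjusted p = 0.00244). Pck2 was 4.21, 21.6 and 5.44 CPM in the tumours and reached 4.62 CPM in the normal liver of M00247, so the ranges overlapped although the difference of 2.45 (SE 0.64) passed the test (edgeR adjusted p = 0.0295). Asns was 0.842, 31.9 and 0.253 CPM in the tumours against 0 to 12.3 CPM in normal liver and did not pass the test (log2 difference 2.21, SE 1.27, edgeR adjusted p = 0.307). Phgdh, which was not tested with all 3 tumours, was 0.722, 23.96 and 0.886 CPM in the tumours and at most 3.17 CPM in normal liver. Chac1 (0.75, SE 0.72) and Sesn2 (1.23, SE 0.52) did not pass the test either.

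Fgf21, the hormone of the group, was 26.7, 20.3 and 7.09 CPM in the tumours of M00236, M00248 and M00249. In normal liver it was 0 in 2 of 8 libraries, with a median of 0.576 and a highest value of 5.61 CPM, in mouse M00235. The groups did not overlap and the log2 difference was 3.66 (SE 0.85, edgeR adjusted p = 0.0161). Unlike the enzymes, Fgf21 was not highest in the tumour of M00248.

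**Figure D2:**
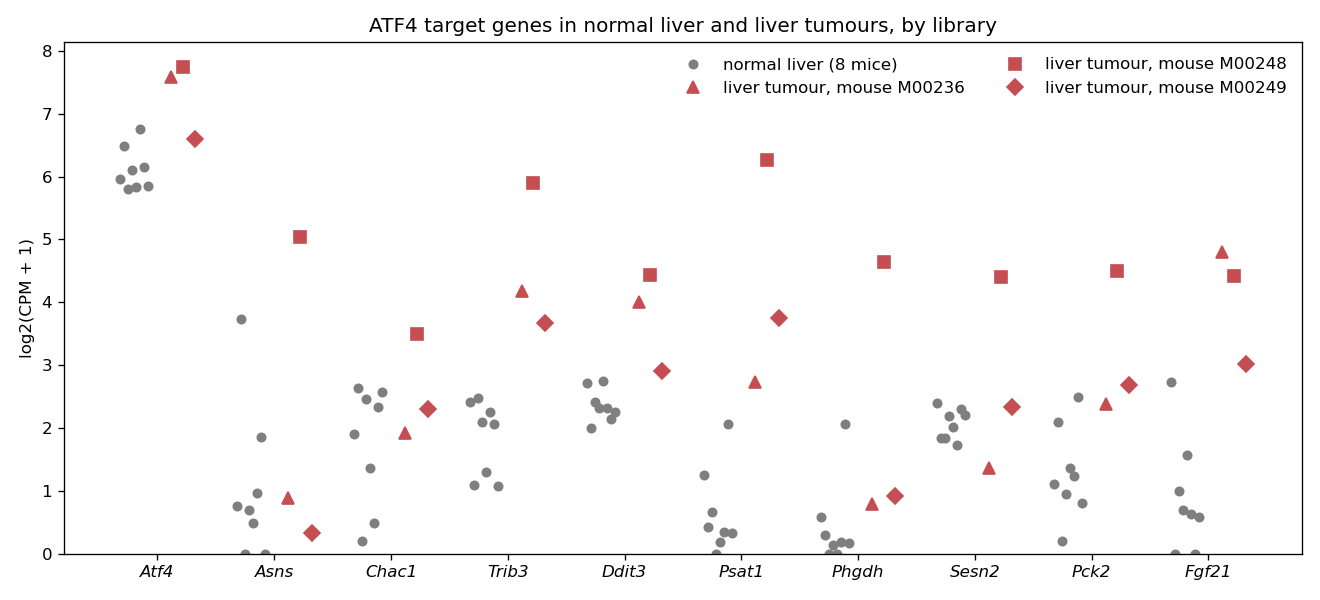
Level of the 10 genes, as log2(CPM + 1), in 8 normal livers (grey points) and 3 liver tumours (red, 1 marker shape per mouse), 1 point per library. The tumour of M00248 is highest of the 3 in 9 of 10 genes, and all 3 tumours lie above all normal livers for Trib3, Ddit3, Psat1 and Fgf21.

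A single tumour weighed heavily in this difference. The tumour of M00248 was the highest of the 3 in 9 of the 10 genes. Without it 3 genes were called (Trib3, Psat1 and Fgf21), the median log2 difference was 1.20, and Asns and Sesn2 turned to -2.04 and -0.42. Trib3 and Psat1 passed the test in all 11 fits that left out 1 library. Fgf21 and Ddit3 passed in 10 of them, losing the call without the tumour of M00236 and without that of M00248 respectively. Atf4 passed in 8, failing without either of these tumours or without the normal liver of M00248, and Pck2 passed in 5, failing without the tumour of M00248 or the normal liver of M00235, M00238, M00245, M00246 or M00248. With the mouse as a block no gene passed, of these or of all 13256, with 941 genes at an unadjusted p below 0.05. Only 2 mice gave both tissues. The sign remained positive in the blocked fit for 8 of the 9 genes, Chac1 being at -0.04. Mice M00235 to M00238 hold only 1 of the tumours, that of M00236, which the fit assumes to vary like their 4 normal livers. There 3 of these genes were called (Atf4, Trib3 and Ddit3) among 2289 genes in all. Within mice M00245 to M00249, with 2 tumours and 4 normal livers, none was among 164.

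The tumours also differed in cell makeup. Summed hepatocyte markers were 22970, 112000 and 51600 CPM in the tumours of M00236, M00248 and M00249, so the first lay below and the second above the normal span of 47750 to 84610 CPM. Of the 10 hepatocyte markers 4 were called lower and none higher (median log2 difference -0.74). Of 10 fibroblast markers 3 were called higher and none lower (median 1.13). Cholangiocyte markers summed to 39.8, 1123 and 275.6 CPM against 19.0 to 159.8 CPM in normal liver, and adipocyte markers to 348.6, 70.9 and 57.4 CPM against 10.8 to 33.6 CPM. Macrophage markers, at 595.6 to 1282 CPM, lay within the normal span of 276.8 to 1754 CPM. The part of these cell types in the results was not tested.

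Other genes of the pathway rose in part in the liver tumours. Of 7 amino acid transporters tested, 3 were higher and none lower: Slc7a11, the cystine importer, Slc3a2, its heavy chain partner, and Slc1a4, a neutral amino acid carrier. Slc7a11 was 1.44 to 244 CPM in the tumours and at most 0.204 CPM in normal liver (log2 difference 9.09, SE 1.12). Every normal liver lay below the level of 3 counts for Slc7a11, so a lower call was hardly possible for it. The size of its log2 difference thus rests on few counts in normal liver and on tumours that differed widely. Of 7 synthesis and one-carbon enzymes, 2 were higher, Psph (2.29, SE 0.34), the last step of serine synthesis, and Mthfd2 (2.67, SE 0.64), a mitochondrial folate enzyme. Got1, the cytosolic aspartate aminotransferase, was lower (-1.64, SE 0.42). Of 11 stress regulators and secreted factors, 5 were higher and none lower, among them Atf3 (3.14, SE 0.51), Gdf15 (1.87, SE 0.35), a stress hormone, and Eif4ebp1 (0.90, SE 0.18), a brake on translation.

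The other pathway lists had few calls or none. Only Gars, of 13 transfer RNA synthetases, was called (0.76, SE 0.16). None of the 7 tested genes for eIF2 alpha, its kinases and partners was called, and none of the 15 genes of the endoplasmic reticulum unfolded protein response, whose median log2 difference was -0.08. With no scaling beyond library totals the transfer RNA synthetase count became 4 of 13 and the unfolded protein response median 0.09, while 6 of these 9 genes were still called. Of 12 tested p53 targets 3 were higher and none lower. Over all genes, library totals alone moved the median from 0.09 to 0.27 and the calls from 925 higher and 482 lower to 1388 and 330.

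Sarcomas had a different profile, with Pck2 above muscle and Chac1 and Trib3 below it. Muscle of the same line was the comparison tissue, which does not state that the sarcomas arose in muscle. The tissues differ at large: 9540 of 14697 genes (64.9%) were called by edgeR, 33.6% higher and 31.4% lower in sarcoma, so the share of these genes called is near the background. Of the 9 genes tested, 1 was higher and 5 lower, with a median log2 difference of -0.84 against 0.06 over all genes. The 2 sarcomas of mouse M00245 were summed and counted once, which gave 6 sarcomas and 6 muscles.

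Scaling decided part of this count. Trimmed-mean scaling factors were 1.06 to 1.56 in sarcoma and 0.65 to 0.80 in muscle. Mitochondrial genes held 5.56 to 13.4% of counts in sarcoma and 21.1 to 34.8% in muscle. With library totals alone the median over all genes moved to 1.03, and 3 of the 9 genes were called higher (Psat1, Sesn2 and Pck2) and 2 lower (Chac1 and Trib3). Over all genes the split of calls moved from 4931 higher and 4609 lower to 9271 and 2019. Asns and Ddit3, called lower with scaling factors (log2 differences -0.84 and -0.85), stood at 0.15 and 0.13 without them. Pck2, Chac1 and Trib3 kept their call and direction under both.

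Chac1, the glutathione-degrading enzyme, was 0.318, 0.754 and 1.86 CPM at the lowest, median and highest of the 7 sarcoma libraries, and 3.24, 10.9 and 59.8 CPM in muscle. No sarcoma reached any muscle (log2 difference -5.43, SE 0.68). The muscles of M00237 and M00238, which had the most Chac1, also had the highest keratinocyte marker sums (8623 and 10400 CPM, against 3491 to 4510 CPM in the other 4) and the lowest muscle fibre sums (21120 and 17660 CPM). Within mice M00245 to M00249, which leaves both out, Chac1 was called lower in sarcoma (-4.42). The muscles there still held 3491 to 4510 CPM of keratinocyte markers, and the part of those cells was not tested. Trib3 was 0.159, 0.724 and 1.66 CPM in sarcoma and 1.91, 3.72 and 6.88 CPM in muscle, again without overlap (-3.09, SE 0.46). Groups without overlap, sarcoma below muscle, were found for 9.48% of all genes. Pck2, in contrast, was 13.6, 21.5 and 26.1 CPM in sarcoma and 1.54, 3.76 and 5.19 CPM in muscle, without overlap (1.63, SE 0.28, edgeR adjusted p = 0.000154). Sarcoma lay wholly above muscle for 44.7% of all genes.

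**Figure D3:**
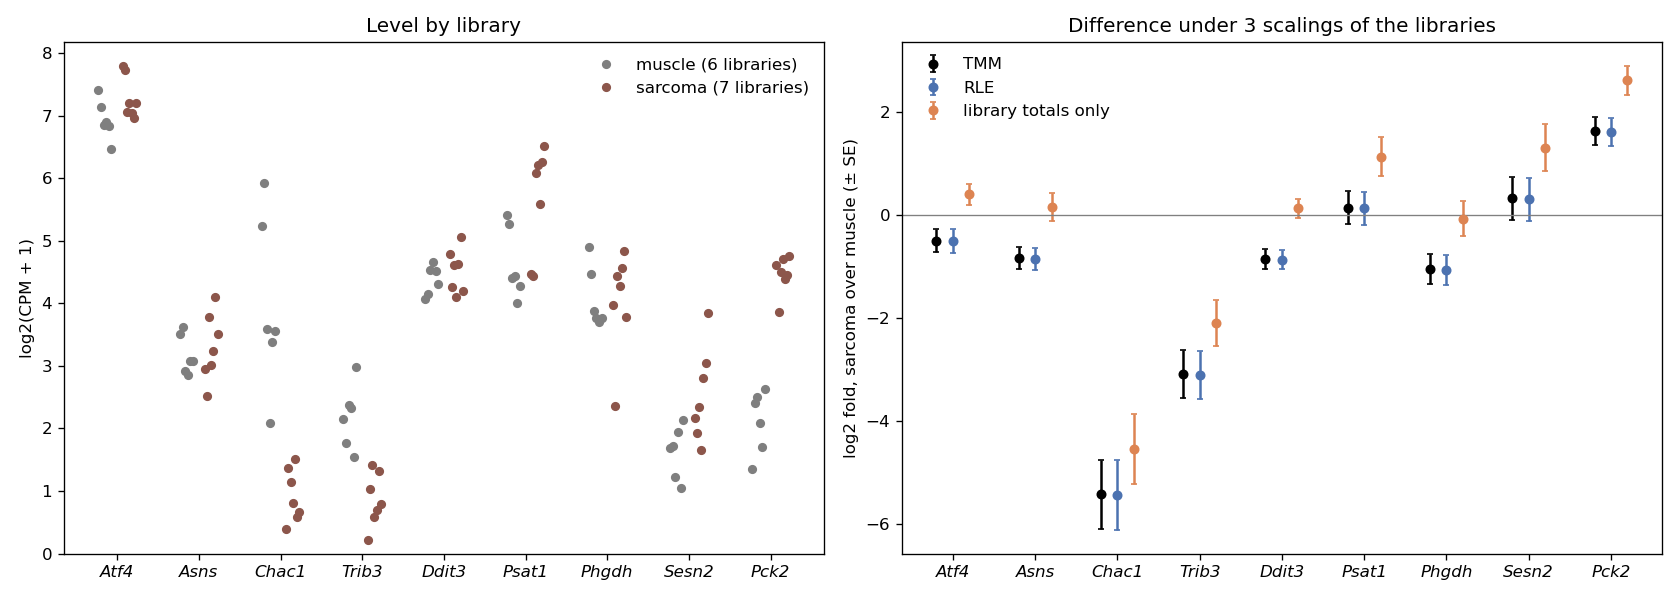
Left, level of 9 genes as log2(CPM + 1) in 6 muscle and 7 sarcoma libraries, 1 point per library; right, log2 difference of sarcoma over muscle with its SE under trimmed-mean (TMM) scaling, relative-log (RLE) scaling and library totals only. Chac1 and Trib3 lie lower and Pck2 higher under all 3 scalings, while Asns and Ddit3 lie below 0 under TMM (-0.84 and -0.85) and at 0.15 and 0.13 with library totals.

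The other tested genes overlapped between sarcoma and muscle, and Fgf21, at 0 in sarcoma and at most 0.110 CPM in muscle, was too low to be tested. Psat1 was 20.5 to 90.2 CPM in sarcoma, with a median of 67.0 CPM, and 15.1 to 41.5 CPM in muscle, with a median of 20.4 CPM. The sarcomas of M00235 and M00236 were the low ones, at 21.0 and 20.5 CPM. Phgdh had a log2 difference of -1.05 (SE 0.29) and was called lower, but stood at -0.07 with library totals alone. Atf4 ranged from 124 to 220 CPM in sarcoma and from 87.1 to 170 CPM in muscle. Its log2 difference was -0.49 (edgeR adjusted p = 0.0711), and with the mouse as a block it was -1.01 and passed the test (adjusted p = 0.00317). It also passed without any 1 of the sarcomas of M00235 and M00236 and the muscle of M00249, and with library totals alone it stood at 0.40.

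Cell makeup moved with these differences. Muscle fibre markers summed to 28.6 to 5928 CPM in sarcoma and 17660 to 39410 CPM in muscle, fibroblast markers to 8302 to 32970 and 1278 to 1631 CPM, Schwann cell markers to 2381 to 5553 and 132 to 266 CPM. Keratinocyte markers were 429 to 7053 CPM in sarcoma and 3491 to 10400 CPM in muscle. Their part in the result was not tested.

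The wider pathway in sarcoma against muscle was mixed and followed the scaling. Of 7 transporters 5 were lower and 1 higher, with Slc1a4 at -2.73 (SE 0.25) and Slc7a11 at -3.62 (SE 0.70). With library totals alone these counts became 2 and 1. Of 13 transfer RNA synthetases 9 were lower and none higher, but 6 were higher and 1 lower with library totals, so that group has no direction that holds under both. Synthesis enzymes split 4 and 4, with Got1 at -4.99 (SE 0.34) and Cth, which makes cysteine, at -3.50 (SE 0.54). Among stress regulators, 2 of 11 were higher, led by Jdp2 (2.41, SE 0.27), and 6 lower. The unfolded protein response had 8 of 15 genes higher, led by the chaperone Hsp90b1 (1.40, SE 0.15), and 3 lower, and eIF2 alpha kinases and partners had 4 higher and 2 lower of 7, Eif2ak3 (PERK) being at 1.59 (SE 0.21). With library totals alone the counts higher and lower were 5 and 2 for synthesis enzymes, 3 and 4 for stress regulators, 12 and 0 for the unfolded protein response and 6 and 0 for the kinases and partners.

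Sarcoma and liver tumour were then compared directly, since both are tumours of the same line. In this fit 9241 of 16557 genes (55.8%) were called, 30.2% higher and 25.6% lower in sarcoma. Of the 10 genes, 4 were lower in sarcoma (Fgf21, Trib3, Chac1 and Atf4) and none higher. The share called in either direction was thus not above that of all genes. The median log2 difference was -1.12 against 0.20 over all genes. Trib3 had a log2 difference of -6.02 (SE 0.59, edgeR adjusted p = 1.02e-05), with at most 1.66 CPM in sarcoma and at least 11.8 CPM in liver tumour. Chac1 was -3.53 (SE 0.58) and Atf4 -0.95 (SE 0.36, edgeR adjusted p = 0.0398). Fgf21 was 0 in all 7 sarcoma libraries, so it was tested only through the liver tumours and could only come out lower. Against a floor of 3 counts per library, at most 0.620 CPM, and the mean of the liver tumours, it was at least 29.1-fold lower.

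Groups without overlap, sarcoma below liver tumour, were Chac1, Trib3 and Fgf21, the last being at 0 in every sarcoma library. They were 10.3% of all genes. With the mouse as a block, which 2 mice inform, only Trib3 and Fgf21 were called. With library totals alone Atf4 was at -0.03 and no longer called, the median over all genes moved to 1.16, and the calls from 4995 higher and 4246 lower to 8569 and 2112. Here too the tumour of M00248 mattered: without it 4 genes were called higher in sarcoma, Asns (3.01), Psat1 (1.64), Phgdh (3.30) and Pck2 (1.21), and 3 lower. Atf4 lost its call in 6 of 9 fits that left out 1 sample (the liver tumours of M00236 or M00248, or the sarcomas of M00237, M00238, M00245 or M00248). Of 13 transfer RNA synthetases 11 were lower in sarcoma, of 15 unfolded protein response genes 14, and of 9 synthesis enzymes 5, but with library totals alone these became 1, 7 and 4.

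Sarcoma was also set against 3 other normal tissues, in 1 fit of 5 groups that shares the sarcomas. Against normal liver, where 12226 of 17766 genes (68.8%) were called, Psat1 (4.97), Phgdh (3.74), Pck2 (2.44) and Ddit3 (1.11) were higher, and Chac1 (-2.90) and Trib3 (-2.95) lower. Atf4, at 0.03, was not called, although its CPM in sarcoma (124 to 220) lay wholly above normal liver (54.7 to 107). Sarcoma lay wholly above normal liver for 45% of all genes. Over 25 alternative fits Atf4 ranged from -0.44 to 1.22 and was called in 1. Asns, at 0.81, was not called (edgeR adjusted p = 0.211) but was with the mouse as a block (1.86, adjusted p = 0.00731), and it was also called without the liver of M00236. Against spleen, where 52.3% of genes were called, Psat1 was higher (1.04) and the other 8 tested genes lower, with Asns at -2.68 and Trib3 at -3.13. Trib3 was 22.3 CPM in the spleen of M00236 and at most 2.46 CPM in the other 5, and without that spleen the difference was -1.59 and still called. With library totals alone the count against spleen was 5, 1 higher and 4 lower. Psat1 lost its call in 5 of 12 fits that left out 1 library (the sarcomas of M00238 or M00248, or the spleens of M00245, M00246 or M00248), and Chac1 (-1.72) in 3 (the sarcomas of M00235 or M00248, or the spleen of M00247). Against lung, where 44% of genes were called, Psat1 was higher (2.73) and Trib3 (-2.73) and Sesn2 (-1.01) lower. Atf4 (0.04), Asns (-0.52), Chac1 (-1.27), Ddit3 (-0.20) and Pck2 (-0.04) did not pass the test against lung. Phgdh (0.55) was called higher there only with the mouse as a block (1.02, adjusted p = 0.0232). With library totals alone the median over all genes moved from 0.22 to 1.46 against liver, from 0.00 to 0.47 against spleen and from 0.02 to 0.16 against lung. The calls became 11862 higher and 2375 lower against liver, from 6798 and 5428, and 6981 and 2553 against spleen, from 4847 and 4443. Trib3 was thus called lower in sarcoma in each of these comparisons, which share the sarcoma libraries and are not independent. It was as low in tissues that entered no test, at 0 and 0.887 CPM in brain and 0.827 CPM in kidney, against 0.159 to 1.66 CPM in sarcoma.

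In the fibroblasts, no gene separated the labelled genotypes at the adjusted threshold. At passage 1, homozygous against negative, edgeR called 0 of 12051 genes (0%) and 0 of the 9 genes tested, with 1315 genes at an unadjusted p below 0.05. DESeq2 called 24 genes (0.199%), Pck2 among them (adjusted p = 0.0187). Fgf21, at 0 to 0.785 CPM at passage 1 and 0 to 1.20 CPM at passage 3, was too low to be tested. All 9 estimates lay below 0, from -0.01 for Sesn2 to -1.04 for Trib3, with a median of -0.48 against -0.0014 over all genes.

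By library, Trib3 at passage 1 was 47.8, 74.1 and 58.2 CPM in embryos 1, 5 and 8 (labelled negative), 39.7, 55.5 and 66.5 CPM in embryos 2, 4 and 6 (heterozygous) and 35.7, 33.3 and 18.5 CPM in embryos 3, 7 and 10 (homozygous). Pck2 was 67.3, 76.4 and 77.9 CPM, then 55.4, 62.1 and 63.2 CPM, then 35.4, 57.7 and 31.1 CPM in the same order. Chac1 was 18.03, 21.7 and 22.8 CPM, then 12.7, 17.1 and 23.1 CPM, then 8.69, 16.4 and 8.47 CPM. For all 3 genes the homozygous and negative groups did not overlap, and embryo 10 was the lowest of all 9. Across the 9 tested genes, embryo 10 was the lowest passage 1 library in 7 and embryo 3 in 2.

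Atf4 at passage 1 was 626, 756 and 728 CPM in the negative group, 722, 708 and 663 CPM in the heterozygous group and 595, 588 and 506 CPM in the homozygous group. Asns was 45.0, 59.4 and 58.2 CPM, 50.9, 50.4 and 48.9 CPM, and 36.0, 51.6 and 31.8 CPM, with embryo 7 inside the negative range. Of the 9 genes 7 had homozygous values wholly below the negative ones (Atf4, Chac1, Trib3, Ddit3, Psat1, Phgdh and Pck2), against 6.45% of all genes. None lay wholly above, against 6.6% of all genes. The log2 differences were -0.31 for Atf4 (SE 0.11, edgeR adjusted p = 0.377), -0.44 for Asns (SE 0.16, adjusted p = 0.384) and -0.83 for Pck2 (SE 0.17, adjusted p = 0.294). None passed the threshold.

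**Figure D4:**
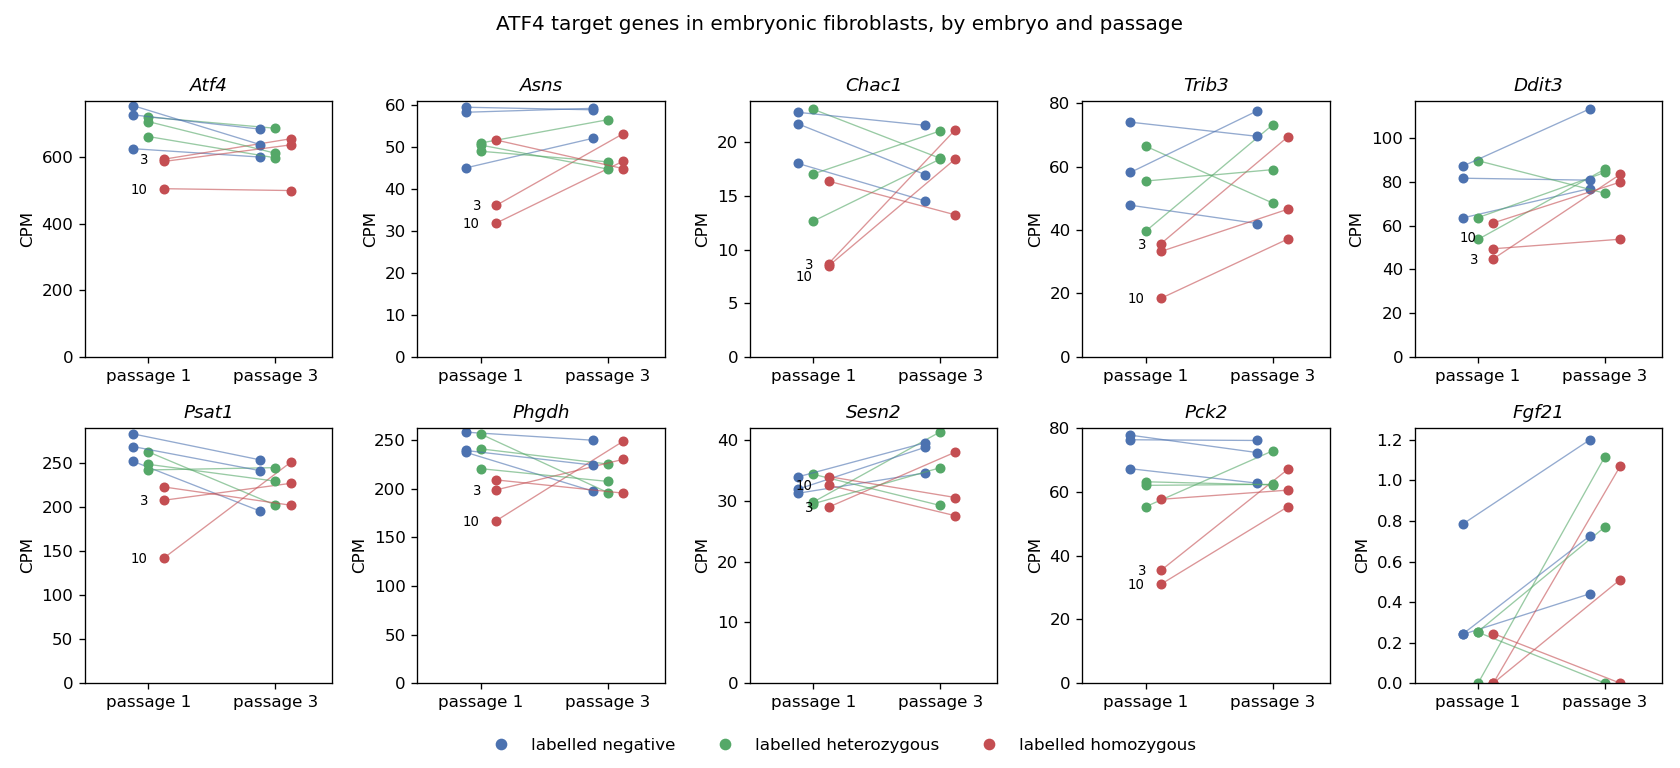
CPM of the 10 genes in 18 fibroblast libraries, 1 panel per gene, with the 2 passages on the x axis, 1 line per embryo and colours for the labelled genotype. Embryos 3 and 10 are marked: they are low at passage 1 in most panels (Trib3 35.7 and 18.5 CPM) while at passage 3 embryo 10 is lowest in 5 (Atf4, Trib3, Ddit3, Sesn2 and Pck2).

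Leaving out embryo 7, which leaves embryos 3 and 10, gave 891 called genes, 4 of these among them, all lower (Asns, Chac1, Psat1 and Pck2). These 2 embryos stood apart in other ways at passage 1. Summed macrophage markers were 142.5, 76.0 and 87.1 CPM in embryos 2, 3 and 10 and 1540 to 2715 CPM in the other 6. Fibroblast markers were 5593, 5250 and 4580 CPM in these 3 and 7718 to 8708 CPM in the others. Embryo 10 also had the highest sum of 13 p53 targets, 2499 CPM against 1167 to 1684 CPM elsewhere, and of myogenic markers, 179 CPM against 1.65 to 17.2 CPM. Their part in the result was not tested. Without embryos 2, 3 and 10, which leaves embryo 7 alone in the homozygous group, the differences were -0.10 for Asns, -0.38 for Chac1, -0.39 for Pck2 and -0.88 for Trib3. Without embryos 1 and 3, whose Nrg1 did not match the rest of their label group, 2 genes and none of these were called. Trib3 was then at -1.37 and Pck2 at -0.82.

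The heterozygous embryos were close to the negative ones at passage 1, with a median log2 difference of -0.09 over the 9 genes and with 0 genes called by edgeR or by DESeq2 and 316 below an unadjusted p of 0.05. Only Pck2 did not overlap, being lower (5.24% of all genes lay wholly lower and 3.3% wholly higher). Homozygous against heterozygous, the median was -0.42, and Atf4, Trib3, Psat1 and Phgdh did not overlap, all lower (4.34% of all genes lay wholly lower and 5.53% wholly higher). EdgeR called 0 genes there, DESeq2 1, and 1022 had an unadjusted p below 0.05. Without embryo 7, edgeR called 147 genes, Pck2 among these 9. The contrasts share embryos and are not independent.

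At passage 3 the genotypes overlapped for all 9 genes. Of all genes, 5.34% lay wholly higher and 4.43% wholly lower in homozygous than in negative embryos, 6.97% and 6.09% in heterozygous than in negative, and 4.42% and 4.67% in homozygous than in heterozygous. The median log2 difference was -0.21 for homozygous against negative, -0.10 for heterozygous against negative and -0.11 for homozygous against heterozygous. EdgeR called 0 genes in each, with 452, 529 and 417 genes at an unadjusted p below 0.05, and DESeq2 called 0, 1 and 1. Trib3 at passage 3 was 42.1, 69.6 and 77.7 CPM in embryos 1, 5 and 8 and 69.4, 46.6 and 37.2 CPM in embryos 3, 7 and 10. Pck2 was 62.8, 76.2 and 72.4 CPM and 67.1, 60.6 and 55.4 CPM. The homozygous-labelled values overlapped the negative ones, with embryo 10 still lowest of all 9 for both genes.

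Passage itself changed 340 of 12051 genes (2.82%), 218 higher (1.81%) and 122 lower (1.01%) at passage 3, and none of the 9. That test did not pair the libraries of an embryo, and with the embryo as a block 449 genes were called. The passages overlapped for all 9, while 0.183% of all genes lay wholly higher and 0.0249% wholly lower. The largest estimates were 0.35 for Trib3 (SE 0.17, edgeR adjusted p = 0.313) and 0.31 for Ddit3 (SE 0.12, adjusted p = 0.183). Ddit3 had a lowest, median and highest value of 44.8, 63.5 and 89.7 CPM at passage 1 and 53.8, 80.8 and 113 CPM at passage 3, and was higher at passage 3 in 7 of 9 embryos. Atf4 and Phgdh were each lower in 7 of 9 embryos. Pck2 was the only one of the 9 genes called in any of these fits, without embryo 7. The count of all called genes ranged from 30 to 779 when 1 embryo was left out, was 4 without embryos 1 and 3 and 131 without the library headed passage 5, so it is loosely set.

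The log2 change from passage 1 to passage 3, taken with its sign, was higher in the homozygous than in the negative embryos for 8 of the 9 genes. Directions differed: Chac1 fell in embryos 1, 5, 7 and 8 and rose in embryos 3 and 10. The test of the difference between homozygous and negative embryos called none. Estimates were 0.87 for Chac1, 0.73 for Trib3 and 0.62 for Pck2, with a median of 0.34 against 0.01 over all genes. EdgeR called 0 of 12051 genes, with 514 at an unadjusted p below 0.05, and DESeq2 1. Without embryos 2, 3 and 10 the median was 0.09, which rests on embryo 7 alone for the homozygous side.

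The wider pathway at passage 1 leaned the same way as the 9 genes, homozygous against negative, without a call. Median log2 differences were -0.36 for 9 transporters, -0.48 for 9 synthesis enzymes, -0.27 for 13 transfer RNA synthetases, all 13 of them below 0, and -0.34 for 12 stress regulators. Slc7a11 was 14.1 to 16.4 CPM in the negative group and 5.90 to 7.83 CPM in the homozygous group (log2 difference -1.05), and Slc7a3, a cationic amino acid carrier, 19.2 to 26.2 and 8.21 to 13.0 CPM (-0.99). Aldh1l2, a mitochondrial folate enzyme, was at -0.80, Stc2 at -0.77 and the transcription factor Atf5 at -0.70. The eIF2 alpha kinases and partners had a median of -0.01, the unfolded protein response 0.09 and p53 targets 0.54. No gene of these lists passed the threshold.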

How the data were processed

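RNA was sequenced with a 3′ end method (QuantSeq) on an Illumina HiSeq4000, per the labels' protocols; no source used here names the aligner, counter, genome build or annotation. The authors deposited expected counts per gene, of which 6.60% (fibroblasts) and 8.35% (tissues) of values were not whole, and a CPM table, which equalled CPM recomputed from the deposited counts for the 10 genes. Counts were rounded, which moved totals by at most 0.000698%.

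Tests used edgeR 4.0.16 (R 4.3.3; trimmed-mean scaling, filterByExpr with a minimum count of 10, quasi-likelihood F test, Benjamini-Hochberg threshold 0.05) over all genes of a fit. The fibroblast fit held 6 groups; tissue fits held the groups compared, with the 2 sarcomas of 1 mouse summed. Sarcoma against liver, spleen and lung came from 1 fit. Fold changes are log2. The code was tested on simulated data. Alternatives were DESeq2 1.42.0, other scalings and filters, embryo or mouse as a block, and leaving out libraries. The embryo and mouse that pair libraries come from the labels; fibroblast libraries of 1 embryo had correlated deviations from their group means (r 0.0538 to 0.337).

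All 10 genes were followed in every comparison, with values printed for those that the results turn on; of each pathway list, at most 3 genes with the smallest adjusted p were named, and the 5 genes most correlated with Asns. The 10 genes and the lists were chosen with earlier results of these data known. All libraries were used, with groups from the labels. At these depths 3 counts correspond to at most 0.620 CPM in sarcoma. Low values such as Fgf21 outside liver tumour, and Chac1 and Trib3 in sarcoma, are thus near the detection floor. The p-values measure the spread between libraries of a group, each from its own embryo or mouse. Except with a block, libraries of 1 embryo or mouse in different groups were treated as independent.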

Additional observations from a re-analysis of the deposited data

Results flagged for a closer look

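In 9 of 49 combinations of gene and tissue group, 1 library lay far from the rest by Dixon's test. Its rate of 1 in 20 by chance holds for normally distributed values. CPM values are skewed and some are 0, so the number expected by chance here is not known. In mouse M00247, Phgdh was 3.17 CPM in liver (next 0.502) and 26.3 CPM in lung (next 11.1), and Psat1 was 3.18 CPM in liver (next 1.37). Psat1 was also high in its spleen, at 28.9 CPM (next 18.1). That liver library had 1754 CPM of macrophage and 159.8 CPM of cholangiocyte markers, the highest of the 8 normal livers. Mouse M00236 had Asns at 12.3 CPM in liver (next 2.60) and Trib3 at 22.3 CPM in spleen (next 2.46). For Fgf21 the outlying values were 5.61 CPM in the liver of M00235 (next 1.98), 0.487 CPM in the spleen of M00245 (next 0.138) and 0.151 CPM in the lung of M00238 (all others 0). The 2 last values are at or below the level of a few counts.

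The change of Pck2 from passage 1 to passage 3 went up in all 3 embryos labelled homozygous and down in all 3 labelled negative, but several changes were near 0. On the log2 scale they were 0.90, 0.07 and 0.81 in embryos 3, 7 and 10 and -0.10, -0.004 and -0.10 in embryos 1, 5 and 8. Embryos 3 and 10 had the lowest Pck2 at passage 1. The difference of means was 0.67. In the fit over all genes the same difference was 0.62 and did not pass the threshold.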

How the results depend on the processing

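Counts of called genes among the 9 or 10 tested moved as follows. Homozygous against negative at passage 1 had 0, but 1 with DESeq2 and 1 with no filter on low counts, and 0 to 4 when 1 embryo was left out; homozygous against heterozygous at passage 1 had 0 to 1 and passage 0 to 1. Liver tumour against normal liver had 6, with 3 to 7 when 1 library was left out, 3 in mice M00235 to M00238, which hold 1 liver tumour, and 0 in mice M00245 to M00249. Sarcoma against liver tumour had 4, 2 with a mean of at least 5 CPM, which leaves fewer genes, and 3 to 7 when 1 library was left out. Sarcoma against spleen had 9, but 5 with library totals only, 4 in mice M00235 to M00238, which hold 1 spleen, and 5 in mice M00245 to M00249, and 7 to 9 when 1 library was left out. Counts for the other comparisons kept within 1.5 times. The cause of these changes was not tested, beyond the smaller number of samples or genes. The restriction to 1 set of mice, the omission of the library headed passage 5 and library totals only were chosen after seeing the data.

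The following values turned sign and were past the threshold in at least 1 of the fits compared; values called in neither also turned, some of them given above. With library totals only, Asns (0.15) and Ddit3 (0.13) in sarcoma against muscle and Sesn2 (0.75) in sarcoma against normal liver turned positive. In sarcoma against liver tumour, leaving out the tumour of M00248 turned Asns, Psat1 and Phgdh positive (ranges over all such fits -1.86 to 3.01, -0.68 to 1.64 and -0.65 to 3.30), and mice M00235 to M00238 alone, which hold 1 liver tumour, turned Asns (2.22) and Phgdh (3.30).

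With the embryo or mouse as a block, the counts became 0 for liver tumour against normal liver and 2 for sarcoma against liver tumour, Atf4 in sarcoma against muscle, Asns in sarcoma against normal liver and Phgdh in sarcoma against lung gained a call, and the block changed no other call of these genes. All genes called with passage went from 340 to 449 with the embryo block, and to 590 with DESeq2. Depth limits Fgf21 outside the liver tumours and Asns, Psat1 and Phgdh in normal liver, where values are a few counts or 0. It also limits Chac1 and Trib3 in sarcoma, with medians of 0.754 and 0.724 CPM, where 3 counts correspond to at most 0.620 CPM. The size of their log2 differences there thus rests on few counts.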
